A study of Homo sapiens with 4 samples.

Results

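The MCM family genes on the array were examined after depletion of LAS1L in HCT116, an established line of human colorectal carcinoma. Members were all probes of the deposited value table whose annotated gene symbol was MCM2, MCM3, MCM4, MCM5, MCM6, MCM7, MCM8 or MCM10, which gave 8 of 20046 annotated genes and 15 of 47323 probes. The hexamer subunits MCM2 to MCM7 had 10 probes, MCM8 had 3 and MCM10 had 2. Cells were transfected with siRNA at 40 nM and, 72 h later, their RNA was hybridised to Illumina HumanHT-12 v4 bead chips. The Las1L siRNA group held 2 arrays, 1 for Las1L siRNA #1 and 1 for Las1L siRNA #2, and the control siRNA group held 2 arrays given the same control siRNA. No label says that the 2 control arrays were grown separately, so their spread may be technical, while the spread between the Las1L arrays also holds any difference between the siRNAs. LAS1L is a nucleolar protein needed to process the ribosomal RNA precursor of the large subunit, and its loss is studied here as a nucleolar stress of cancer cells. The siRNA strands given by the labels, each 19 bases before a TT overhang, are shown because the Las1L arrays carry different molecules. Which strand is the guide is not given in the sources used here.
Las1L siRNA #1: cugauacgcuguaagcucu
Las1L siRNA #2: cauuuauacccagagugga
Control siRNA: gaucauacgugcgaucaga

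The MCM2 to MCM7 proteins form a ring that unwinds DNA at the replication fork. The ring is loaded onto origins in G1 by the origin recognition complex with CDC6 and CDT1, stays inactive until S phase, and becomes the active helicase when CDC45 and the GINS complex join it. MCM10 shares the name but lacks the helicase domain of the ring subunits, and it acts when the loaded ring is activated. MCM8 carries that domain and works with MCM9 in homologous recombination rather than in the replicative ring. Genes of the replicative ring are known targets of E2F transcription factors in proliferating cells.

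Signals are the authors' normalized intensities in linear units. A probe was above background when its signal exceeded 28.1 units, and 14 of the 15 member probes passed the filter for testing, which asked for this on at least 2 of the 4 arrays. All 14 were above background on all 4 arrays. Log2 fold changes are Las1L siRNA over control siRNA, with signals under 16 units set to 16. Two-sided limma tests ran over all 17689 tested probes with Benjamini-Hochberg adjustment at 0.05, without an intensity trend as the primary fit and with a trend, in which the prior variance follows the mean signal, beside it. In the primary fit 0% of tested probes passed, with a lowest adjusted p of 0.0523 in limma and 4266 probes at an unadjusted p under 0.05. With the trend 15.8% passed, 7.7% lower and 8.12% higher. Below, "fell" and "rose" are used only of probes past the threshold of the limma fit with the trend, none of which passed the primary fit, and standard errors (SE) and intervals are from the fit with the trend unless the primary fit is named. The targeted gene LAS1L was left at 28.4% of the mean control signal with siRNA #1 and at 21.3% with siRNA #2. Colon epithelial markers were bright, with EPCAM at 6794.3 and 6428.2 units on the Las1L arrays and 7035.3 and 6670.3 units on the control arrays, but VIL1 was under the background limit on all 4. Of 5 tested epithelial markers CDH1 rose (0.43, SE 0.13) and the other 4 did not pass by their brightest probes, with KRT8 at 0.13, KRT19 at -0.072 and EPCAM at -0.052 on the log2 scale. The keratin gene KRT18 had probes that disagreed, with -0.040 on the brighter and a fall of 0.57 on the dimmer (adjusted p = 0.0301 in limma with the trend, 135.1 and 150.1 units with the Las1L siRNAs against 192.9 and 230.2 in the controls). The part of these markers in the MCM values was not tested, and 6 of 8 fibroblast, endothelial and leukocyte markers were not above background on enough arrays to be tested.

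The promoters of the members are shown because the results compare genes of 1 family that share a known class of regulator. RefSeq promoter sequences of GRCh38.p14, each running from 250 bases before the annotated gene start, were matched by symbol for 6 of the 8 genes, and for MCM7, which has 3 starts in that table, the outermost was used. They lie at chr3:127598161-127598460 on the plus strand for MCM2, chr6:52284693-52284992 on the minus strand for MCM3, chr2:135876394-135876693 on the minus strand for MCM6, chr7:100101348-100101647 on the minus strand for MCM7, chr20:5950402-5950701 on the plus strand for MCM8 and chr10:13161308-13161607 on the plus strand for MCM10. Each is written 5′ to 3′ along the gene, and capitals mark the letters TTTGGCGC, TTTCGCGC or TTTGGCGG on either strand, all of them forms of the E2F motif. Overlapping matches form 1 run of capitals.
MCM2: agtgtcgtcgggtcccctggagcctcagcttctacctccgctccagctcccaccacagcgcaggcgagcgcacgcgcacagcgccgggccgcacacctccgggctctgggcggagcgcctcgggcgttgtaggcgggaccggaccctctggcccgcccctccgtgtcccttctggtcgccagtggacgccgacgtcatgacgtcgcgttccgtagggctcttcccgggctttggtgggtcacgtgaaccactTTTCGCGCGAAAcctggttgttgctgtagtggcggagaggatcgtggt
MCM3: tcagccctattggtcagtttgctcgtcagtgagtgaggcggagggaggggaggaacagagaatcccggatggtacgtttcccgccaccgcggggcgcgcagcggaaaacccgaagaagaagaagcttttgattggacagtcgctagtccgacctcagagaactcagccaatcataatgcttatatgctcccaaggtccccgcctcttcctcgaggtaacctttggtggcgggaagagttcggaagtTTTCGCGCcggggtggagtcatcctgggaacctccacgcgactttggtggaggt
MCM6: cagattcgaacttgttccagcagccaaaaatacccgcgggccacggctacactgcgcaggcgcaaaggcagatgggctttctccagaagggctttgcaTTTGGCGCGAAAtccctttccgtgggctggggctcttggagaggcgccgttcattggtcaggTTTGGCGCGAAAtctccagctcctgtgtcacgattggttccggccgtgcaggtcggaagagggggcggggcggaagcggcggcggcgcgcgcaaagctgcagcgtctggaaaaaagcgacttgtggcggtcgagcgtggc
MCM7: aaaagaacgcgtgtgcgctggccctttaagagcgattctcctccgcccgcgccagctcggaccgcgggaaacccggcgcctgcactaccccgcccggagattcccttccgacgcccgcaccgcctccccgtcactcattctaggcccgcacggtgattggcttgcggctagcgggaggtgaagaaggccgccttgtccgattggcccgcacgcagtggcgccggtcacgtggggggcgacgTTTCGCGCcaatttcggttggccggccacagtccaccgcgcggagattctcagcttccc
MCM8: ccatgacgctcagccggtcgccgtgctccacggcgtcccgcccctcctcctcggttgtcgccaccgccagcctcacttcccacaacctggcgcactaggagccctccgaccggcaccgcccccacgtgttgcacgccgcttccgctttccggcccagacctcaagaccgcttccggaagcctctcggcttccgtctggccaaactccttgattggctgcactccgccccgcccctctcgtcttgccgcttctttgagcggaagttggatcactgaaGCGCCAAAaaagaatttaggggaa
MCM10: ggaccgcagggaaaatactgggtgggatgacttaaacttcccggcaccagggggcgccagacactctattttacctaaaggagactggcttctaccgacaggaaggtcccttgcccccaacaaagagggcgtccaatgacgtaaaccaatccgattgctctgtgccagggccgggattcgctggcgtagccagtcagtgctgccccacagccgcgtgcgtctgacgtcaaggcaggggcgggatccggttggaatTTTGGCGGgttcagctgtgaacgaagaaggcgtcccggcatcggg

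The letters TTTGGCGC or TTTCGCGC were present in 5 of the 6 member promoters, all but that of MCM10, and in 1.15% of the 35116 promoters of the table. MCM10 held TTTGGCGG, a form searched after its sequence had been read, which is present in 0.652% of all promoters. Distances are counted from the annotated gene start as 0. In MCM2 a pair of overlapping matches spanned bases 2 to 13, in MCM3 the match spanned -4 to 3, and in MCM7 it spanned -9 to -2. MCM6 differed from these in position, with its matches at -152 to -141 and at -90 to -79. MCM8 had its match on the opposite strand at 26 to 33, and the MCM10 match lay at 5 to 12. The CCAAT box, searched as CCAAT on either strand, was present in 5 of the 6, all but MCM2, against 34.6% of all promoters. The GC box, searched as GGGCGG, was present in all but MCM3, against 45% of all promoters. These matches describe letters in the windows and do not show that a factor binds there.

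**Figure D1:**
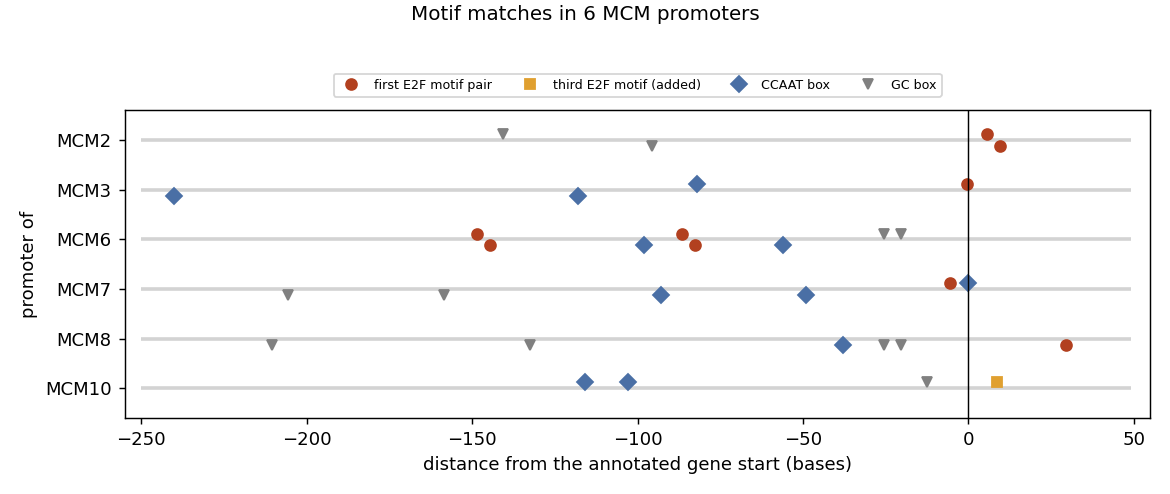
Motif matches along the promoters of 6 MCM genes; the x axis is the distance in bases from the annotated gene start, points are motif centres, and points above or below a line are on the gene's own or the opposite strand. E2F motif matches lie next to the start in MCM2, MCM3, MCM7, MCM8 and MCM10, and further upstream in MCM6.

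Of the 8 genes MCM3, MCM6, MCM7 and MCM10 fell with Las1L siRNA by their brightest probes, while MCM2, MCM4, MCM5 and MCM8 did not pass. All 10 hexamer probes, which read 6 genes, had a negative log2 fold change, where the median over all tested probes was 0.000219. Among the 10 hexamer probes 5 fell, covering MCM3, MCM6 and MCM7. Both MCM10 probes fell. None of the MCM8 probes passed. Over the family 7 of 14 tested probes fell and 0 rose, where 7.7% of all tested probes fell. Both Las1L arrays lay below both control arrays for 11 of the 14 member probes, against 27.9% of all tested probes. In the primary limma fit 0 of the 14 passed, and 7 of them, the same probes, had an unadjusted p under 0.05 and were lower in that fit, against 11.9% of all tested probes. The arrays read RNA from whole cultures, so fewer cells carrying a transcript and less of it per cell cannot be told apart.

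**Figure D2:**
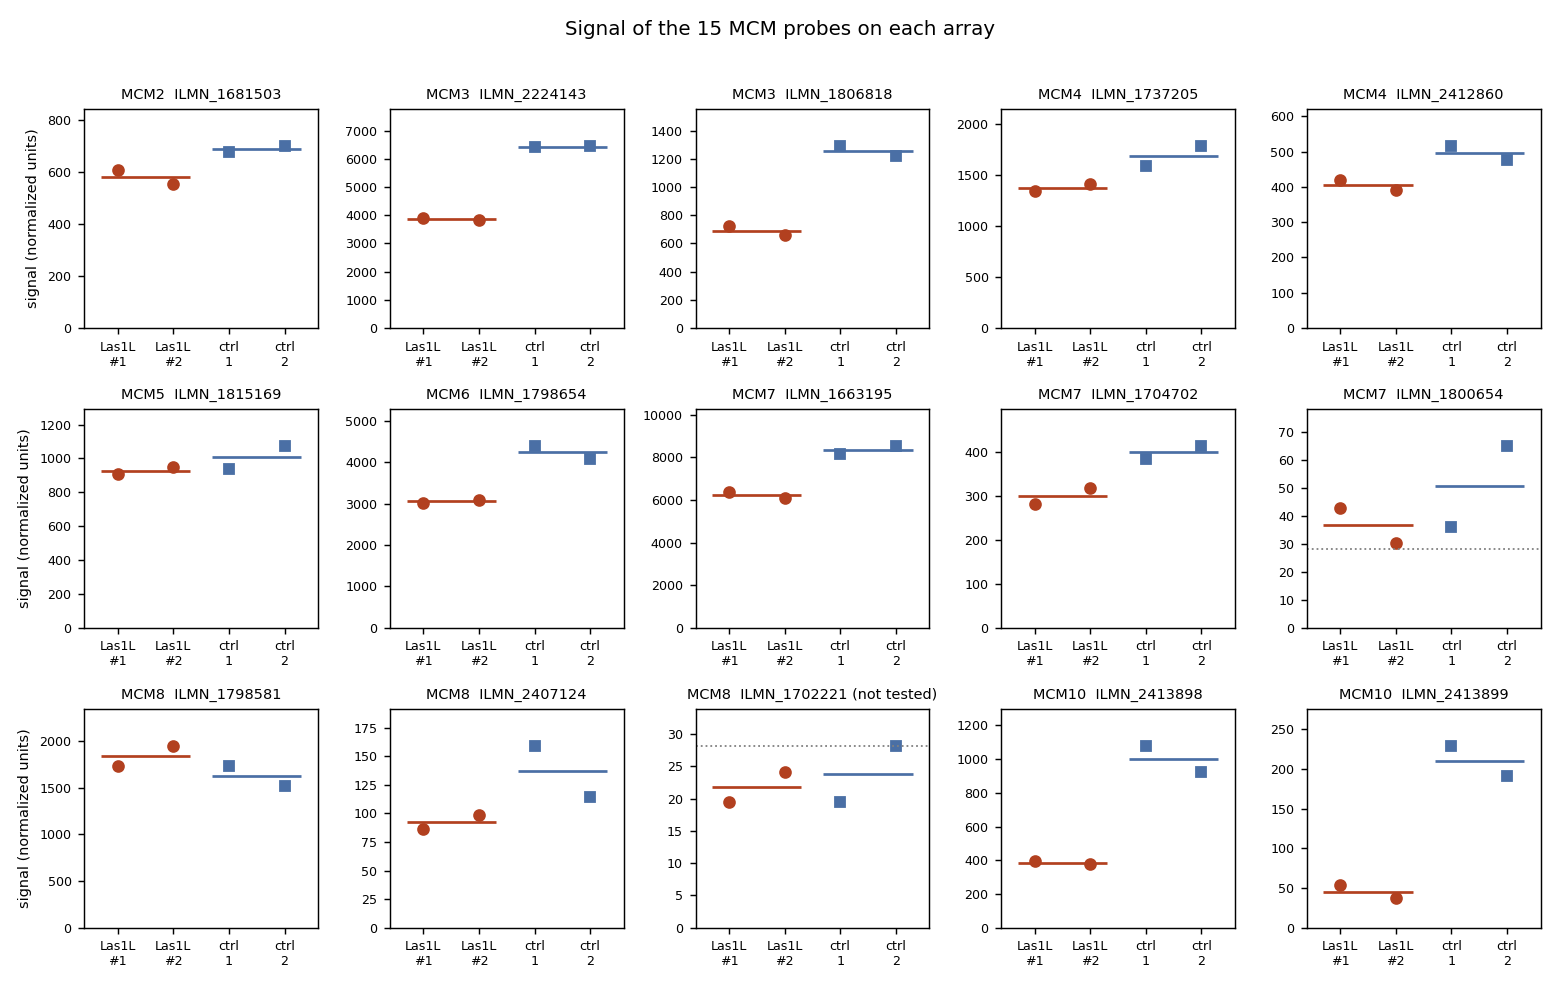
Signal of each of the 15 MCM probes in normalized linear units, by array, with Las1L siRNA #1 and #2 as circles and control replicates 1 and 2 as squares; horizontal lines are group means and the dotted line, where drawn, is the background limit of 28.1 units. Groups separate most in the MCM10 and MCM3 panels and overlap for MCM5, the dimmest MCM7 probe, the brightest MCM8 probe and the untested MCM8 probe.

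Among the ring subunits MCM3 had the lowest fold change. Its brighter probe (ILMN_2224143) gave 3909.9 units with Las1L siRNA #1 and 3839 with siRNA #2, against 6411.2 and 6468.9 in the control arrays. Its dimmer probe (ILMN_1806818) gave 723.7 and 656.6 units with the Las1L siRNAs, against 1294.1 and 1221.9 in the controls. The groups were far apart on both probes relative to the gap within each pair. On the log2 scale the brighter probe averaged 11.92 ± 0.019 with Las1L siRNA and 12.65 ± 0.0091 with control siRNA (SD, n = 2 each). It fell by 0.73 (SE 0.085, 95% interval -0.91 to -0.55, adjusted p = 2.9e-05 in limma with the trend), and the dimmer probe fell by 0.87 (SE 0.10). In the primary limma fit their adjusted p-values were 0.0676 and 0.0655. The fold was 1.66 on the brighter probe and 1.82 on the dimmer, with less signal under Las1L siRNA on each.

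MCM6 and MCM7 fell by smaller amounts. MCM6 had a single probe (ILMN_1798654), with 3008.5 and 3090.4 units on the Las1L arrays against 4393.7 and 4079.4 on the control arrays. Its groups did not overlap, and the log2 values averaged 11.57 ± 0.027 with Las1L siRNA and 12.05 ± 0.076 with control siRNA (SD, n = 2 each). It fell by 0.47 (SE 0.088, 95% interval -0.66 to -0.29, adjusted p = 0.00164 in limma with the trend and 0.122 without). MCM7, read by 3 probes, gave 6366.4 and 6100.7 units with the Las1L siRNAs on its brightest probe (ILMN_1663195), against 8173.7 and 8544.6 in the controls. That probe fell by 0.42 (SE 0.085, 95% interval -0.60 to -0.24, adjusted p = 0.00307 in limma with the trend and 0.137 without). The second MCM7 probe (ILMN_1704702), at 280.9 and 318.6 units against 383.9 and 414 in the controls, fell by 0.41 (SE 0.13, adjusted p = 0.0401 with the trend). The third (ILMN_1800654) lay near the background limit, at 42.9 and 30.5 units with the Las1L siRNAs and 36.1 and 65.2 in the controls. Its groups overlapped, and its log2 fold change of -0.42 had an interval of -1.22 to 0.38. The 3 MCM7 probes thus gave nearly the same log2 fold change, with the largest error on the dimmest probe.

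MCM2, MCM4 and MCM5 had smaller differences, and none of their probes passed. MCM4 gave 1335.9 and 1410.2 units with the Las1L siRNAs on its brighter probe (ILMN_1737205), against 1581.3 and 1782.4 in the controls. Its second probe (ILMN_2412860) gave 420.6 and 389.8 units against 516.5 and 475.5. On each probe both Las1L arrays lay below both controls, and both had a log2 fold change of -0.29. The adjusted p of the brighter was 0.0557 in limma with the trend, with an interval of -0.50 to -0.082, and 0.269 in the primary fit. With the trend its call depends on the setting. The brighter probe passed in limma among probes above background on all 4 arrays (adjusted p = 0.0371) and with an offset of 64 in place of the floor (0.0494). MCM4 also passed when limma was refitted and adjusted over genes by their brightest probes (0.0371) and with the mean over probes (0.0405).

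MCM2 (ILMN_1681503) gave 606.1 and 554.3 units with the Las1L siRNAs, against 677.1 and 700.2 in the controls. The groups did not overlap, and the log2 fold change was -0.25 (SE 0.11, 95% interval -0.48 to -0.016, adjusted p = 0.14 in limma with the trend and 0.302 without). MCM5 (ILMN_1815169) gave 905.4 and 946.9 units with the Las1L siRNAs, against 938.4 and 1075.1 in the controls. Here the groups overlapped, since the array of siRNA #2 lay above control replicate 1. The log2 fold change of MCM5 was -0.12 (SE 0.10, 95% interval -0.34 to 0.11, adjusted p = 0.507 in limma with the trend). A decrease larger than 0.34 lay outside this interval, but the primary fit's interval of -0.48 to 0.24 took in such decreases.

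MCM8 did not show 1 direction across its probes. The brightest (ILMN_1798581) gave 1735.7 and 1949.1 units with the Las1L siRNAs, against 1735.7 and 1515.7 in the controls. The groups met at 1735.7, and the log2 fold change was 0.18 (SE 0.10, 95% interval -0.034 to 0.40, adjusted p = 0.254 in limma with the trend and 0.508 without). The second probe (ILMN_2407124) pointed the other way, at 86.3 and 98.4 units with the Las1L siRNAs against 159.2 and 114.4 in the controls. Its groups did not overlap, and its log2 fold change of -0.55 had an SE of 0.21 and an adjusted p of 0.0925 in limma with the trend. The third (ILMN_1702221), gave 19.5 and 24.2 units with the Las1L siRNAs against 19.5 and 28.2 in the controls, and was not tested. The direction of MCM8 therefore depends on the probe, and it turned to -0.18 (adjusted p = 0.355 with the trend) when the tested probes were averaged.

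MCM10 had the lowest fold changes of the family. Its brighter probe (ILMN_2413898) gave 395.9 units with Las1L siRNA #1 and 375.2 with siRNA #2, against 1079.2 and 923.5 in the controls. Its dimmer probe (ILMN_2413899) gave 54.1 and 37 units with the Las1L siRNAs, against 229.4 and 190.7 in the controls. Neither probe's groups came near each other. The brighter probe averaged 8.59 ± 0.055 on the log2 scale with Las1L siRNA and 9.96 ± 0.16 with control siRNA (SD, n = 2 each), and fell by 1.37 (SE 0.12, 95% interval -1.62 to -1.13, adjusted p = 1.3e-06 in limma with the trend and 0.0555 in the primary fit). The dimmer probe fell by 2.22 (SE 0.23, adjusted p = 1.1e-05 with the trend and 0.0568 without). The signal was 2.59-fold lower with Las1L siRNA on the brighter probe and 4.67-fold lower on the dimmer one. On the dimmer probe the Las1L signals of 54.1 and 37 units lay near the background limit, so its size is less certain. The probes thus differed in size and had the same direction.

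**Figure D3:**
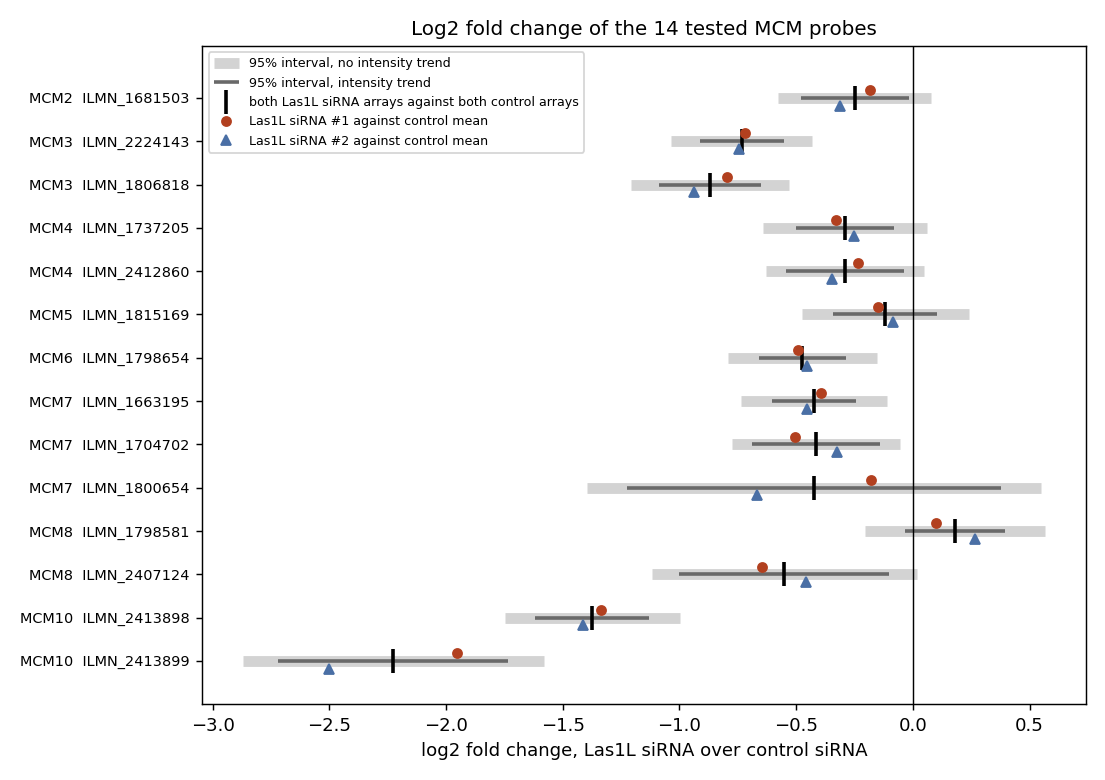
Log2 fold change of the 14 tested MCM probes, Las1L siRNA over control siRNA, with 95% intervals of the limma fits with and without an intensity trend; circles and triangles give each siRNA against the mean of the control arrays. The MCM10 probes lie furthest left, MCM3 next, and the brightest MCM8 probe is the only one right of 0.

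Set beside each other by their brightest probes, the hexamer subunits had log2 fold changes between -0.73 (MCM3) and -0.12 (MCM5), with a median of -0.36, where the median over 10466 tested genes was -0.000102. In rising order these were MCM3, MCM6, MCM7, MCM4, MCM2 and MCM5, and the intervals of every neighbouring pair in that order overlapped. The log2 fold change of MCM10 minus the hexamer median was -1.02, with -0.97 for siRNA #1 and -1.03 for siRNA #2. It was -0.86 without control replicate 1 and -1.18 without control replicate 2. MCM8 minus that median was 0.54 by its brightest probe, with 0.46 for siRNA #1 and 0.65 for siRNA #2. By its second tested probe MCM8 lay on the other side of the median, at -0.19, and with each gene's tested probes averaged the difference was 0.17, so its sign is not settled by these probes. For MCM10 the second probe gave -1.87 and the average -1.44, on the same side as the brightest. Among all tested genes the fold change of MCM10 stood at percentile 0.43, that of MCM3 at 4.18, MCM6 at 10.8, MCM7 at 12.8, MCM4 at 20.8, MCM2 at 23.9, MCM5 at 36.5 and MCM8 at 70.3, each by its brightest probe. The interval of MCM10 did not overlap that of any ring subunit with the trend, while in the primary fit, with an upper end of -0.998, it overlapped that of MCM3, with a lower end of -1.04. This comparison across genes was not tested, since members are not replicates and an exact permutation of 2 arrays against 2 cannot give a p below 0.333.

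Each siRNA was also set against the same control pair in a 3-group limma fit that leaves 1 residual degree of freedom, with a Las1L array assumed to vary like the controls. For siRNA #1 and siRNA #2 in that order, the log2 fold change was -1.33 and -1.41 for MCM10, -0.72 and -0.75 for MCM3, -0.49 and -0.45 for MCM6, and -0.39 and -0.45 for MCM7. The smaller values were -0.33 and -0.25 for MCM4, -0.18 and -0.31 for MCM2, and -0.15 and -0.085 for MCM5. MCM8 had 0.098 and 0.27 on its brightest probe. The sign was the same with either siRNA for each of the 14 tested probes, and since both comparisons share the control arrays, this is given as values only. No member passed for either siRNA, where 0% of all tested probes passed with or without the trend. For MCM10 the adjusted p in limma was 0.281 with siRNA #1 and 0.26 with siRNA #2 without the trend, and 0.0842 and 0.0712 with it. Directly between siRNA #2 and siRNA #1 the member difference of largest size was -0.55 on the dimmer MCM10 probe, with a 95% interval of -1.26 to 0.17 in the fit with the trend, and 0% of all tested probes passed. For MCM3 the difference was -0.026 (-0.33 to 0.28), so the arrays leave room for modest differences between the siRNAs.

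Genes that load, activate or accompany the ring were also examined in 5 lists. Of 68 tested genes of replication and E2F control, 31 fell by their brightest probes with adjustment over all probes, where 9.17% of 10466 genes fell and 9.64% rose. In the primary limma fit 0 of the 68 passed. Of 10 tested helicase activation genes 9 fell and 0 rose, with a median log2 fold change of -0.62. DONSON, a replisome assembly factor, fell by 1.10 (SE 0.13), and MTBP, which helps fire origins, fell by 1.00 (SE 0.18). DONSON gave 228.6 and 213.2 units with the Las1L siRNAs against 495 and 451.2 in the controls, and MTBP 115.6 and 109.9 against 256.5 and 198.2. The exception was GINS4, a subunit of the GINS complex, whose log2 fold change of 0.90 missed the threshold (adjusted p = 0.0511 with the trend). GINS1, DBF4 and DBF4B were not tested, having too little signal.

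By their brightest probes 3 of 9 origin licensing genes fell and 0 rose, with a median of -0.30. ORC3 fell by 0.96 (SE 0.15) and ORC1 by 0.92 (SE 0.20), both subunits of the origin recognition complex. The third was CDT1, which loads the ring, with 1073.9 and 1218.6 units on the Las1L arrays against 1606.1 and 1988 on the control arrays, named here after its value was seen. CDC6, the loading ATPase, was under the background limit on both Las1L arrays, at 11.3 and 1.8 units against 40.6 and 42.9 in the controls. That makes it at least 1.49-fold lower (adjusted p = 0.0526 in limma with the trend, short of the threshold). Such a bound sets the mean log2 signal of the brighter group against, on each array of the dimmer group, the lowest signal above background. ORC6 did not show 1 direction, with 0.13 on its brighter probe, which did not pass. Its dimmer probe fell by 0.73 (adjusted p = 0.000327 in limma with the trend).

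Among partners and relatives of the members, HROB, which recruits the MCM8 and MCM9 helicase, fell by 0.61 (SE 0.11), with 404.3 and 411.5 units on the Las1L arrays against 635.3 and 608.2 on the control arrays. MCMBP, an MCM-binding protein that aids assembly of the ring, fell by 0.51 (SE 0.16), with 136.2 and 148.2 units against 191.3 and 214.4. MCMDC2, a meiotic MCM relative, was at -0.13 on the log2 scale by its brighter probe. Its other probe was under the background limit on all 4 arrays, the highest being 24.2 units. MCM3AP, an mRNA export factor named for binding MCM3, was at 0.066 on the log2 scale, and neither gene passed. MCM9, the partner of MCM8, was under the background limit on all 4 arrays with both of its probes, the highest being 4 units, so the MCM8 and MCM9 pair could not be followed.

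By their brightest probes 13 of 28 tested fork genes fell and 1 rose, with a median of -0.34. CHAF1A, a histone chaperone subunit at the fork, fell by 0.98 (SE 0.17). POLD3, a subunit of DNA polymerase delta, fell (adjusted p = 0.0133 in limma with the trend), with 30.8 and 13.5 units on the Las1L arrays against 70.2 and 61.1 on the control arrays. Since 1 Las1L array was under the background limit and was raised to the floor, no size is given for it. POLD4, another subunit, was under the limit on both control arrays and at least 1.27-fold higher with Las1L siRNA (adjusted p = 0.15 in limma with the trend, not past the threshold). The 1 that rose was POLE3, which is shared by DNA polymerase epsilon and chromatin complexes, by 0.86 (SE 0.090), named after its value was seen. RFC3, a clamp loader subunit, had probes of opposite sign. Its brightest probe, at -0.44, did not pass. A dimmer probe fell, at -1.05, and another dimmer probe rose, at 0.91.

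By their brightest probes 4 of 17 tested E2F, RB and DREAM factors fell and 2 rose, with a median log2 fold change of -0.075. The shares over all tested genes were 9.17% that fell and 9.64% that rose. E2F2, an activating E2F, fell by 1.08 (SE 0.099), with 650.1 and 631.5 units on the Las1L arrays against 1337.3 and 1363.8 on the control arrays. E2F8, an atypical repressing E2F, was under the limit on both Las1L arrays and at least 1.38-fold lower (adjusted p = 0.0789 in limma with the trend, not past the threshold). RBL1, the p107 pocket protein, gave 18.2 and 32 units on the Las1L arrays, 1 of them under the limit, against 62.6 and 46.4 on the control arrays, and with the trend its adjusted p in limma was 0.063, short of the threshold. The others past the threshold, named after their values were seen, were E2F3, E2F4 and E2F6, which fell by 0.47, 0.44 and 0.48, and RBL2, the p130 pocket protein of the DREAM repressor complex, and CDKN1A, the p21 inhibitor of cyclin-dependent kinases, which rose by 0.67 (SE 0.16) and 0.96 (SE 0.096). E2F1 was near the background limit, at 42.7 and 50 units with the Las1L siRNAs and 44.3 and 27.3 in the controls. TFDP2 had a dimmer probe that rose by 0.76, while its brightest, at 0.37 on the log2 scale, did not pass. Whether these factors have a part in the MCM values was not tested.

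**Figure D4:**
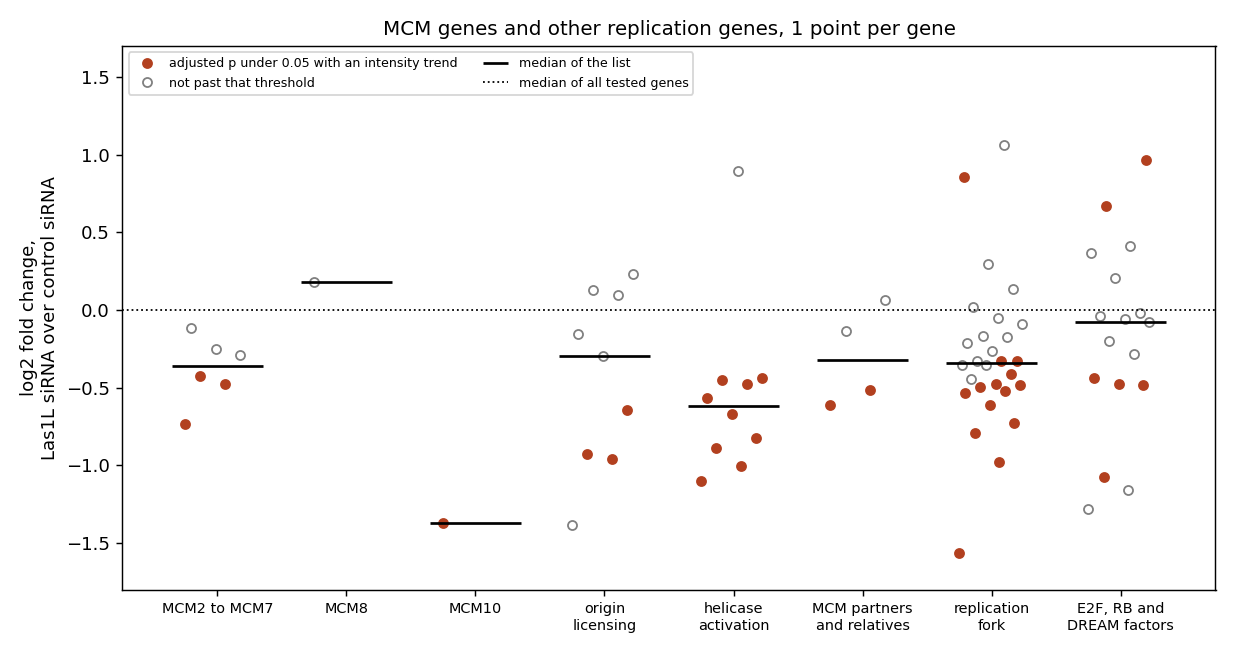
Log2 fold change, Las1L siRNA over control siRNA, of the MCM genes and of the tested genes of 5 lists, 1 point per gene by its brightest probe; filled points passed an adjusted p of 0.05 in limma with an intensity trend, bars are list medians and the dotted line is the median of all tested genes. The helicase activation genes lie below 0 with 1 exception, and MCM10 lies below the ring subunits.

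The genes most like the members over the 4 arrays were found by the root mean square distance between log2 profiles, each centred on its own mean. The 5 nearest to the mean hexamer profile were SCARB2, RAP1GDS1, KBTBD11, NOCT and PPP2CB, at distances of 0.012 to 0.017. None of these is in the replication lists. MCM7 was the member nearest to that mean, at 0.029, and ranked 23 when set among the genes outside the family. Each ring subunit is itself part of the mean, which makes its own distance smaller. MCM5 was at 0.14 and MCM3 at 0.18, and many genes outside the family were nearer than either. The 5 nearest to MCM10 were MAZ, JPH1, CALD1, XXYLT1 and ZNF211, at distances of 0.029 to 0.046. MAZ and ZNF211 were under the background limit on both Las1L arrays. CALD1, which encodes caldesmon, gave 296.4 and 268.4 units with the Las1L siRNAs against 804.7 and 718.8 in the controls. With 4 arrays in 2 groups, these distances mostly restate the size of the group difference.

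The calls of the MCM probes depended on the fit and on both Las1L arrays. With the trend, 7 probes fell with all 4 arrays. Leaving out any 1 array, of either group, set 1 array against 2. Fewer probes then passed, and fewest when the array left out was a Las1L array. When the primary fit was restricted to probes above background on every array, 4 of 14 member probes passed, both of MCM10 and both of MCM3, where 8.77% of all probes passed, 4.39% lower and 4.38% higher. The primary model was also refitted on the brightest probe of each of 10466 genes, with adjustment over these genes. MCM10 (adjusted p = 0.0268 in limma) and MCM3 (0.0418) then passed, where 2.05% of genes passed as lower. The refit has its own prior variance, so the number of tests was not the only change. A floor of 50 units left only the brighter MCM3 probe past the threshold, with or without the trend, and with no filter on dim probes 0 passed in either fit.

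**Figure D5:**
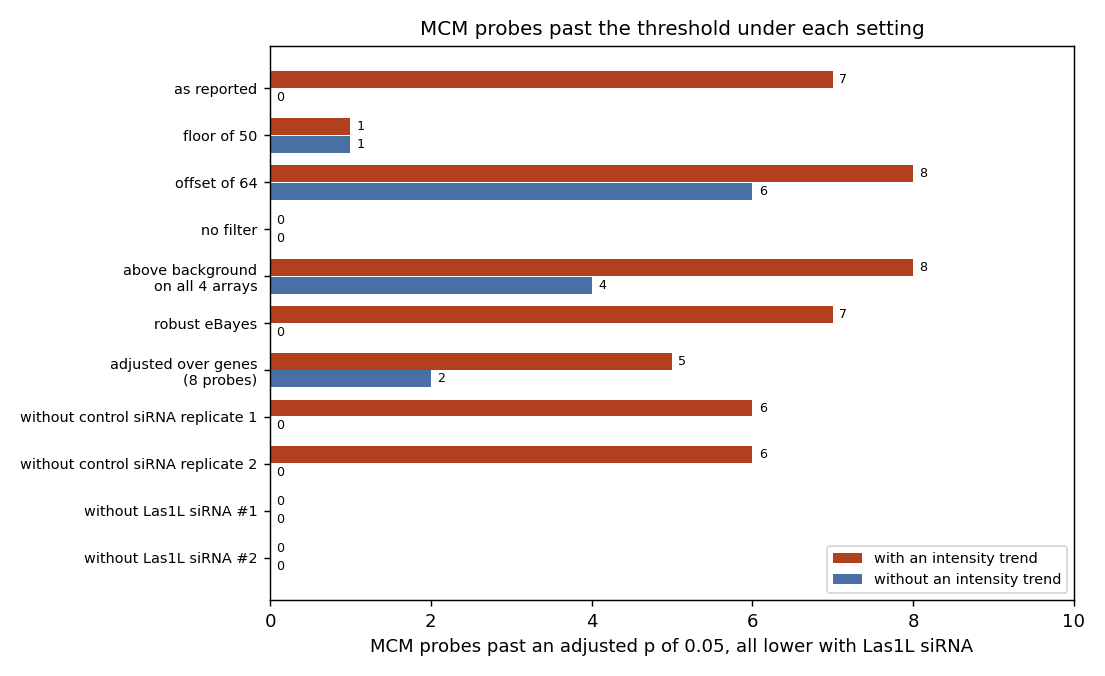
Number of MCM probes past an adjusted p of 0.05 in limma under each setting, with and without an intensity trend; the x axis counts probes, each of them lower with Las1L siRNA. The count is 7 with the trend and 0 without it as reported, reaches 8 with the trend and 6 without, and is 0 in both fits with no filter and without either Las1L array.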

How the data were processed

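RNA of 4 arrays was read with Illumina HumanHT-12 v4 bead chips, and GenomeStudio is named, with no version, in the submitters' processing notes. The values deposited are probe intensity on a linear scale, taken as the authors normalized them. On each array 26.9% of them are negative, and they have a median of 14.9 units on each, as background-subtracted and quantile-normalized intensities do. A further deposited table was left out, since the names of its 8 value columns fit no sample's labels.

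Gene symbols came from a platform annotation of 2016, updated by gene identifier to RefSeq GRCh38.p14 (30113 probes with 1 symbol, 8 with several, 17202 with none, 30074 updated). The background limit of 28.1 units is the one-sided 0.05 point of a noise of 17.1 units, estimated from the negative values as their root mean square. It left 17689 probes, with 17280 to 17284 above it per array. Tests were two-sided with limma 3.58.1 in R 4.3.3 (lmFit, eBayes) on log2 signals floored at 16, with no intensity trend as the primary fit. The fits were also run on simulated data in which noise fell with signal and no spread between siRNAs was set. Such a run does not give the error rate of calls made with different siRNAs. A gene was represented by its brightest tested probe. The number of arrays limits the precision. The members, lists and tests were chosen with earlier results of these data known. Named genes were all members, the 3 largest fold changes of each list and the 5 nearest profiles. CDT1, POLE3, E2F1, E2F3, E2F4, E2F6, RBL2, CDKN1A, TFDP2, ORC6, RFC3, MCM3AP, EPCAM, KRT18 and the untested genes fall outside that rule. They were named after their values were seen. Promoters came from the RefSeq table of GRCh38.p14.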

Additional observations from a re-analysis of the deposited data

How the results depend on the processing

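No paired analysis was possible because the Las1L arrays carry no replicate numbers that match those of the controls. Adjustment over genes means here a new fit on the brightest probe of each gene, with its own prior variance. The count of MCM probes past the threshold in the primary fit was 0. It became 1 at a floor of 50, 6 when an offset of 64 replaced the floor, 4 above background on all 4 arrays, 2 with adjustment over genes and 7 with the intensity trend, and it was 0 (lowest and highest) when 1 array was left out. With the trend it was 7, became 1 with the floor of 50 and 0 with no filter, and lay between 0 and 6 on leaving out 1 array. Over all probes the primary fit's 0 became 226 with the floor of 50, 2239 with the offset, 28 without a filter, 1267 when all 4 arrays had to be above background, 500 with adjustment over genes and 2798 with the trend. The trend's 2798 became 48 with the floor of 50 and 0 with no filter, and lay between 0 and 1495 on leaving out 1 array. Among the other replication genes the primary fit's 0 became 2 with the floor of 50, 29 with the offset, 1 without a filter, 12 when all 4 arrays had to be above background, 7 with adjustment over genes and 31 with the trend. The trend's 31 became 1 with the floor of 50 and 0 with no filter, and lay between 0 and 16 on leaving out 1 array. For each siRNA alone, whether member probes passed depended on the filter, with passes only among probes above background on all 4 arrays. Each siRNA had 1 array, so its own spread could not be estimated, and no counts are given for that filter. With the trend, the variance there came wholly from the prior. MCM10 minus the hexamer median, -1.02, was -0.89 with the offset and lay between -1.18 and -0.86 on leaving out 1 array (-0.97 without Las1L siRNA #2). MCM8 minus that median, 0.54, lay between 0.39 and 0.68 on leaving out 1 array, but was 0.17 with the mean over probes and reversed to -0.19 with its second tested probe. For MCM10 these 2 settings gave -1.44 and -1.87. The log2 fold changes of the other 7 members kept their sign in all settings, and that of MCM8 was -0.18 with the mean over probes. The alternatives of the fit with the trend and the other probes of MCM8 and MCM10 were chosen after seeing the data. The cause of these shifts was not tested.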
